A study of Homo sapiens with 6 samples.

Results

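The peroxisome proliferator-activated receptors (PPARs) were followed with a set of their direct target genes in SKBR3 breast cancer cells carrying extra cortactin (CTTN) and in vector controls. The set held 8 genes, chosen by name from the 54644 gene rows of the deposited table: the 3 receptor genes PPARG, PPARA and PPARD, and the 5 target genes CD36, ANGPTL4, PLIN2, FABP5 and PDK4. Each of the 8 had a row of its own that was shared with no other gene, and 8 of 8 passed the filter on low counts. SKBR3 is a HER2-amplified human mammary adenocarcinoma line, and cortactin is an actin-binding protein of the cell cortex. Both groups had been infected with a lentivirus and selected with puromycin, the control group (n = 3) with the empty pLVX vector and the CTTN group (n = 3) with pLVX carrying human CTTN cDNA. PolyA RNA was sequenced from stable cells of each group, and the submitters call the 3 samples of a group biological replicates without saying whether they came from separate infections. One protocol field also uses the word tumors, while the design text names cells only. The controls are called A, B and C here, because the labels do not tie the data columns to control numbers.

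PPARs are nuclear receptors that bind DNA as partners of the retinoid X receptors (RXRs) and switch on genes of lipid handling when fatty acids or their derivatives bind them. PPARG is best known as the regulator of fat cell formation and is also present in many epithelial tumors, PPARA drives fatty acid oxidation in liver, and PPARD is found in most tissues. In breast epithelium their targets include genes for fatty acid uptake, lipid droplets and lipase control.

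The libraries held 34887079 to 41279658 fragments. CTTN, the gene that was introduced, stood at 299, 307 and 306 CPM (counts in each 1000000 fragments, scaled by TMM factors) in the controls and at 793, 1011 and 520 CPM in CTTN 1, 2 and 3. Its log2 fold change was 1.35 with a standard error (SE) of 0.22 (edgeR quasi-likelihood test, adjusted p = 0.0240), in the direction of the labels, although adjusted p was 0.121 to 0.150 when CTTN 1 or any of the controls was left out. ERBB2, which encodes HER2, was at 1675 ± 30.9 FPKM in controls and 1739 ± 82.2 FPKM in CTTN libraries (mean ± SD, n = 3), whereas CDH1, which encodes E-cadherin, was at 0.130 ± 0.102 and 0.105 ± 0.0290 FPKM. The CTTN libraries spread more widely than the controls: pairs of controls differed by an SD of 0.250 to 0.283 in log2 CPM over genes, and pairs of CTTN libraries by 0.379 to 0.642. Short transcripts were shifted up in CTTN 3, where the 3603 genes with the shortest models (at most 1348 bases) had a median of 0.61 above the control mean on the log2 scale and the 3602 with the longest (at least 3424 bases) a median of -0.57, against 0.27 and -0.28 in CTTN 1, 0.021 and -0.0085 in CTTN 2, and at most 0.0524 from 0 in any control.

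Among the receptors PPARG rose in the CTTN-overexpressing cells, and among the targets CD36 and ANGPTL4 rose. PPARA, PPARD, PLIN2, FABP5 and PDK4 did not pass the test. Thus 3 of the 8 genes were called higher and 0 lower at an adjusted p under 0.05, where 2.43% of the 14409 genes tested were called higher and 2.05% lower. By DESeq2 the same 3 genes were called higher, where 6.94% of genes were. The 8 genes were chosen with earlier results of these data known, so these counts are no test of the set. In bulk RNA, more cells with a transcript and more transcript per cell cannot be told apart.

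PPARG (chr3:12287368-12434356, GRCh38) encodes PPAR gamma. Its level was 7.35, 7.29 and 7.53 CPM in controls A, B and C, and 12.4, 11.4 and 12.1 CPM in CTTN 1, 2 and 3. The lowest CTTN library therefore lay above the highest control, and the spread within either group was small against the gap. PPARG was 1.62-fold higher in the CTTN libraries (95% interval 1.39 to 1.88), a log2 fold change of 0.69 with an SE of 0.092 (edgeR, adjusted p = 0.0127). The call was lost when CTTN 1 or any of the controls was left out, with log2 fold changes of 0.67 to 0.70 and adjusted p of 0.0902 to 0.112.

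PPARD (chr6:35342558-35428191) encodes PPAR delta, also called PPAR beta. It was measured at 41.0, 38.7 and 43.4 CPM in the controls and at 40.5, 43.1 and 34.8 CPM in the CTTN libraries. The groups overlapped, with the lowest value in CTTN 3. The log2 fold change was -0.055 (95% interval -0.30 to 0.19, edgeR, adjusted p = 0.724).

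PPARA (chr22:46150521-46243756) encodes PPAR alpha. Controls A, B and C held 13.1, 15.6 and 14.6 CPM, and CTTN 1, 2 and 3 held 12.9, 22.6 and 9.37 CPM. CTTN 2 was the highest and CTTN 3 the lowest of all 6 libraries, so that the interval of the log2 fold change of 0.052 ran from -0.64 to 0.74 (edgeR, adjusted p = 0.910). Genes whose length is within 10% of that of the PPARA model, which is long at 6785 bases, had a median of -0.78 in CTTN 3 and -0.0023 in CTTN 2 against the control mean on the log2 scale. Whether that length shift bears on PPARA was not tested beyond a fit with the length trend of each library removed, an alternative chosen after seeing the data, in which the log2 fold change of PPARA was 0.39 with an adjusted p of 0.0524. Without CTTN 2 the direction was reversed, at -0.38 (edgeR, adjusted p = 0.0602).

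Per length, PPARD remained the leading receptor gene in both groups. In FPKM, which is scaled by length, PPARD stood at 10.8 ± 0.403 in controls and 10.9 ± 0.592 in CTTN libraries, PPARG at 4.07 ± 0.0820 and 6.79 ± 0.203, and PPARA at 2.04 ± 0.403 and 2.24 ± 0.650 (mean ± SD, n = 3). The ratio of PPARG to PPARD in FPKM was 0.381, 0.382 and 0.368 in controls A, B and C and 0.618, 0.591 and 0.668 in CTTN 1, 2 and 3. Every CTTN ratio lay above every control ratio, which gives an exact two-sided permutation p of 0.10, the smallest that 3 against 3 libraries allow. The share of PPARG in the summed FPKM of the receptors was 24.1 ± 0.834% in controls and 34.2 ± 2.30% in CTTN libraries, and that of PPARD was 63.9 ± 1.28% and 54.6 ± 0.877%. The PPARA to PPARD ratio overlapped between groups, at 0.149 to 0.214 in controls and 0.168 to 0.266 in CTTN libraries (exact permutation p = 0.80). Over the 6 ratios and shares computed on these libraries, the smallest Benjamini-Hochberg adjusted p was 0.20.

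**Figure D1:**
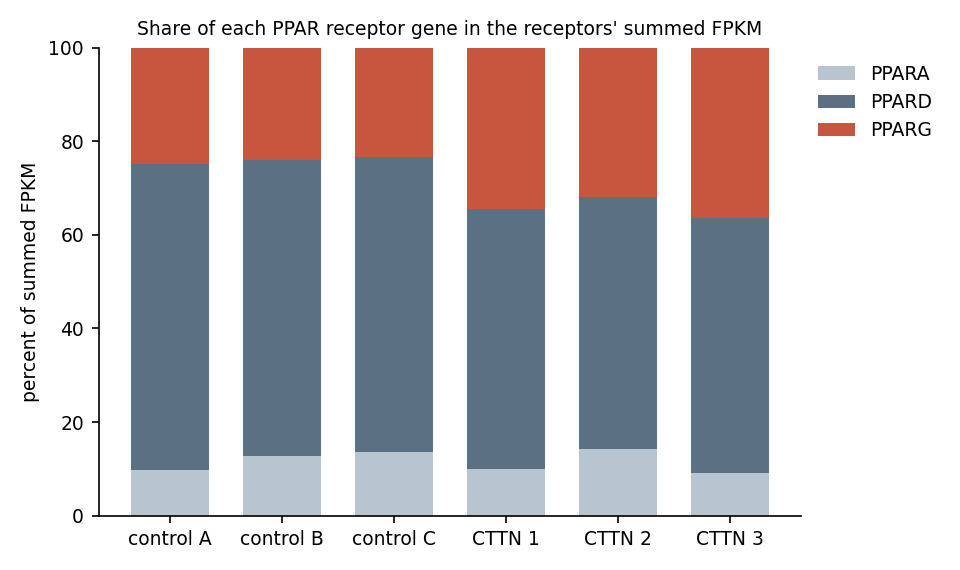
Share of PPARA, PPARD and PPARG in the summed FPKM of the 3 receptor genes (y axis, percent) in each library (x axis). The PPARG segment spans 23.3 to 24.9% in the controls and 31.8 to 36.4% in the CTTN libraries, with PPARD the largest segment in all 6.

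CD36 (chr7:80312574-80679277) encodes the membrane receptor that takes up long-chain fatty acids and oxidized lipoproteins. It held 2.66, 2.07 and 2.19 CPM in controls A, B and C and 6.89, 7.34 and 7.98 CPM in CTTN 1, 2 and 3. All CTTN libraries lay well above the controls. The rise was 3.22-fold (95% interval 2.57 to 4.03), or 1.68 on the log2 scale with an SE of 0.14 (edgeR, adjusted p = 0.00363). Of the 3 called genes, CD36 was the one whose call held when each of the 6 libraries was left out in turn, with log2 fold changes of 1.61 to 1.79 and adjusted p of 4.514e-04 to 0.0477. By limma on log2(FPKM + 1) the log2 difference was 1.01 and did not pass (adjusted p = 0.0537). In raw fragments CD36 had 84 to 94 in the controls and 244 to 276 in the CTTN libraries.

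ANGPTL4 (chr19:8363289-8404434) encodes a secreted inhibitor of lipoprotein lipase. Its level was 1.22, 1.57 and 1.20 CPM in the controls and 6.89, 3.78 and 7.28 CPM in CTTN 1, 2 and 3. CTTN 2, the library with the most CTTN, had the lowest ANGPTL4 of its group, yet still more than every control. The rise was 4.46-fold (95% interval 2.80 to 7.10), or 2.16 on the log2 scale with an SE of 0.29 (edgeR, adjusted p = 0.0126). It had the largest fold change of the 8 genes, on 43 to 66 fragments in the controls. Without CTTN 1 or any of the controls, its log2 fold change was 2.04 to 2.30 and adjusted p was 0.0748 to 0.0931, and by limma on log2(FPKM + 1) the difference was 1.34 with an adjusted p of 0.0844.

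PLIN2 (chr9:19108375-19149290) encodes perilipin 2, a coat protein of lipid droplets. It was nearly level across the controls, at 15.6, 16.2 and 15.8 CPM, and stood at 15.1, 13.7 and 16.5 CPM in the CTTN libraries. The groups overlapped, and the interval of the log2 fold change of -0.070 was -0.30 to 0.16 (edgeR, adjusted p = 0.630). A rise of the size seen for PPARG thus lay outside the interval for PLIN2.

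FABP5 encodes an epidermal fatty acid binding protein that carries ligands to PPAR delta. It stood at 13.0, 14.5 and 14.5 CPM in controls and at 15.0, 12.0 and 20.1 CPM in CTTN 1, 2 and 3. The highest and the lowest of the 6 libraries were both CTTN libraries. The log2 fold change was 0.17 (95% interval -0.27 to 0.60, edgeR, adjusted p = 0.538). FABP5 has a short model of 705 bases, and genes within 10% of its length had a median of 0.70 in CTTN 3 above the control mean on the log2 scale, where FABP5 was highest. With the length trend removed its log2 fold change was -0.21 (adjusted p = 0.119), and without CTTN 3 it was -0.052 (adjusted p = 0.809). Whether the length shift bears on FABP5 was not tested beyond these fits.

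PDK4 (chr7:95583499-95596491) encodes pyruvate dehydrogenase kinase 4, which shifts cells from glucose to fatty acid oxidation. It was near the limit of detection, with 18 to 24 fragments in each of the 6 libraries. The levels were 0.622, 0.572 and 0.469 CPM in controls and 0.509, 0.505 and 0.667 CPM in CTTN libraries. The values overlapped, and the interval of the log2 fold change of 0.011 was wide, from -0.57 to 0.59 (edgeR, adjusted p = 0.977).

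The models of the genes called higher had 1788 bases for PPARG, 1970 for CD36 and 1623 for ANGPTL4. Those of the genes not called had 6785 bases for PPARA, 3706 for PPARD, 2974 for PDK4, 1851 for PLIN2 and 705 for FABP5. Tested genes within 10% of the lengths of PPARG, CD36 and ANGPTL4 had median log2 fold changes of 0.12, 0.082 and 0.14. The genes themselves were at 0.69, 1.68 and 2.16. In CTTN 3 alone the medians of genes of those lengths were 0.22, 0.14 and 0.28 above the control mean. With the length trend removed, PPARG had a log2 fold change of 0.59 (adjusted p = 0.00226), CD36 of 1.62 (adjusted p = 1.538e-04) and ANGPTL4 of 2.00 (adjusted p = 7.307e-04), where 11.0% of genes were called higher. Without CTTN 3, the library with the largest shift by length, they were at 0.69, 1.63 and 1.99 and stayed called (edgeR, adjusted p = 0.00559, 5.050e-04 and 0.00385), as they did without CTTN 2, whereas PPARG and ANGPTL4 were not called without CTTN 1 or any of the controls. Whether the length shift bears on these calls was not tested beyond these fits. For all 3 genes the lowest CTTN library exceeded the highest control, which was true of 19.4% of all genes tested.

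The level order changed at the low end of the set. In controls the mean FPKM fell from FABP5 (20.0 ± 1.21) through PPARD, PLIN2 (8.69 ± 0.443), PPARG, PPARA and CD36 (1.25 ± 0.167) to ANGPTL4 (0.822 ± 0.152) and PDK4 (0.204 ± 0.0394), and no neighbours in that order overlapped over the 3 libraries. In CTTN libraries ANGPTL4 (3.76 ± 1.46) and CD36 (3.56 ± 0.828) stood above PPARA on average, although in CTTN 2 ANGPTL4 (2.09 FPKM) lay below PPARA (2.97 FPKM). The ranges of ANGPTL4 and CD36 overlapped each other there, while those of the other neighbours did not. FABP5 led in both groups, at 22.0 ± 5.30 FPKM in CTTN libraries, and PDK4 came last, at 0.172 ± 0.0125 FPKM. Whether the length shift of the CTTN libraries bears on this order was not tested.

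The stretches upstream of the leading transcripts of CD36 and ANGPTL4, which rose, and of PLIN2, which did not, are shown for their sequence content. They are the 250 bases before the RefSeq start in GRCh38.p14, 5′ to 3′ on the gene's strand: chr7:80638392-80638641 (plus strand) for CD36, chr19:8363905-8364154 (plus strand) for ANGPTL4 and chr9:19127493-19127742 (minus strand) for PLIN2. Capitals mark TATAAA on either strand and CACGTG, the only searched motifs found in these stretches.
CD36: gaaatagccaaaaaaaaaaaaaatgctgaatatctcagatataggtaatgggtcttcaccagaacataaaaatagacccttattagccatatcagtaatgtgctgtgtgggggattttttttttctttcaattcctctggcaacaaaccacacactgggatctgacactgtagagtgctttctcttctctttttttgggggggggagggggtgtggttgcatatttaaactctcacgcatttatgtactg
ANGPTL4: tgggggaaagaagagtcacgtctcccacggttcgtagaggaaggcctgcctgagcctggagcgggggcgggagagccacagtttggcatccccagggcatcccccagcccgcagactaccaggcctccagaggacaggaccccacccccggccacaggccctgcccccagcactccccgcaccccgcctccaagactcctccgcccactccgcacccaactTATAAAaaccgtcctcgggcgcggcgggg
PLIN2: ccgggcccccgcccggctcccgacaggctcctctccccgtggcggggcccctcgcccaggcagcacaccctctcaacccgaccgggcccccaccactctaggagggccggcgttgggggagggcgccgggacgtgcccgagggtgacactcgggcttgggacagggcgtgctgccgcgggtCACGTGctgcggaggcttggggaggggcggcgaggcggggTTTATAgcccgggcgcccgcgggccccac
The CD36 stretch is poor in G and C (39.2%) and held none of the motifs, while those of ANGPTL4 (68.8%) and PLIN2 (78.0%) are rich in them. ANGPTL4 had TATAAA on its own strand and PLIN2 on the opposite strand, each beginning 29 bases before the start, and PLIN2 had CACGTG, the E-box core, 69 bases before it. TATAAA occurred in 10.7% and CACGTG in 6.34% of all 35116 RefSeq windows of this length, several of which can belong to one gene. The nuclear receptor core site AGGTCA was searched on both strands and was present in 12.1% of windows, and its direct repeat AGGTCANAGGTCA, which contains it, in 0.0171%. Of 18 windows of 7 of the 8 genes, AGGTCA was found in 3, all among the 6 windows of PPARG, and the direct repeat in 0. FABP5 had no entry. None of the 6 PPARG windows starts at the leading PPARG transcript of these cells, so none is printed.

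By transcript, PPARG came almost wholly from a single start-site group, which held 86.0 to 90.3% of its FPKM in controls and 84.3 to 88.0% in CTTN libraries. That group stood at 3.53, 3.42 and 3.72 FPKM in controls A, B and C and at 6.09, 5.54 and 5.99 FPKM in CTTN 1, 2 and 3. Its log2 fold change was 0.70 with an SE of 0.15, which did not pass over the 35799 start-site groups tested (edgeR, adjusted p = 0.314) and passed by DESeq2 (adjusted p = 0.00186).

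Most of that signal was divided between ENST00000397015 and ENST00000309576, which share the start and, in GENCODE, encode the same length of 475 residues, the short PPAR gamma 1 form. ENST00000397015 was at 2.05, 1.77 and 1.58 FPKM in controls and 3.70, 3.16 and 3.79 FPKM in CTTN libraries. ENST00000309576 was at 1.48, 1.58 and 2.14 FPKM in controls and 2.31, 2.38 and 1.92 FPKM in CTTN libraries. The first did not overlap between groups and the second did, yet neither passed by edgeR (adjusted p = 0.473 and 0.655). By DESeq2 the first passed (log2 fold change 0.98, adjusted p = 0.0142) and the second did not (adjusted p = 0.772). The share of ENST00000397015 in PPARG was 38.3 to 49.9% in controls and 48.1 to 55.6% in CTTN libraries, so the groups overlapped (exact permutation p = 0.20). ENST00000287820, which encodes the 505-residue PPAR gamma 2 form that is typical of fat cells, was assigned 0, 0 and 0 fragments in controls and 12, 0 and 3 in CTTN 1, 2 and 3. The intron-retaining ENST00000497594 ranged from 0.284 to 0.400 FPKM in controls and 0.124 to 0.608 in CTTN libraries, and ENST00000397000 from 0 to 0.291 and 0 to 0.363.

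**Figure D2:**
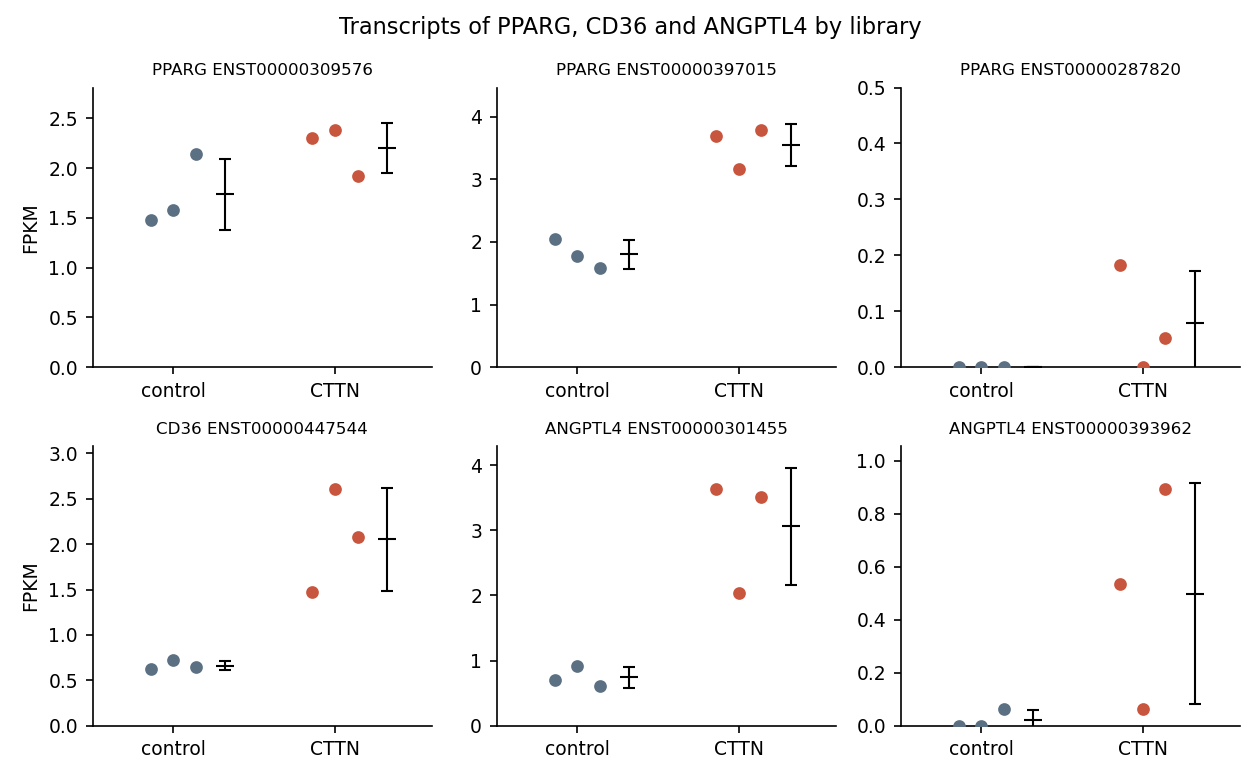
FPKM (y axis, linear, a scale of its own in each panel) of 6 transcripts of PPARG, CD36 and ANGPTL4 in the control and CTTN libraries, with points for libraries in the order A, B, C or 1, 2, 3 and bars for the mean and SD. CTTN points lie above all control points for ENST00000397015, ENST00000447544 and ENST00000301455, and ENST00000287820 stays below 0.2 FPKM.

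The leading CD36 transcript was ENST00000447544, which encodes the full 472 residues. It was at 0.620, 0.720 and 0.643 FPKM in controls and 1.47, 2.61 and 2.08 FPKM in CTTN libraries. A further start-site group of CD36 was listed at 0, 0.0014 and 0.167 FPKM in controls and 0.710, 0.438 and 0.569 FPKM in CTTN libraries. Both were higher in every CTTN library, with adjusted p of 0.412 and 0.379 (edgeR), and by DESeq2 the first passed and the second did not (adjusted p = 8.374e-04 and 0.408). Other CD36 start sites overlapped between the groups. ENST00000438020, with 21.4 to 40.7% of the CD36 FPKM in controls, was at 0.318, 0.227 and 0.557 FPKM in controls and 0.630, 1.09 and 0.154 FPKM in CTTN libraries and was too low for the edgeR test, and another start-site group had a log2 fold change of -0.36 (edgeR, adjusted p = 0.861).

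ANGPTL4 was carried by ENST00000301455, which encodes 406 residues, at 0.697, 0.921 and 0.610 FPKM in controls and 3.64, 2.03 and 3.50 FPKM in CTTN libraries. Its log2 fold change was 1.97 (edgeR, adjusted p = 0.412), and by DESeq2 it was 2.01 (adjusted p = 1.269e-04). The shorter ENST00000393962, with 368 residues, reached 0.0647 FPKM in controls and 0.0626 to 0.895 FPKM in CTTN libraries. For PLIN2, ENST00000276914 held 83.2 to 94.4% of the FPKM over the 6 libraries, and for FABP5, ENST00000297258 held 92.4 to 98.6%. PPARD had a single start-site group, within which ENST00000360694 held 87.9 to 96.6% in controls and 41.3 to 93.0% in CTTN libraries. ENST00000448077 of the same group was at 0.916, 0 and 0 FPKM in controls A, B and C and 3.69, 0.319 and 5.65 FPKM in CTTN 1, 2 and 3. CTTN 2 thus lay below control A. The transcript did not pass by edgeR (adjusted p = 0.550) or DESeq2 (adjusted p = 0.757), and its share gave an exact permutation p of 0.20. The transcripts of PPARA were divided differently in almost every library, for example a model matched to ENST00000407236 at 0 to 1.13 FPKM in the controls. The leading PDK4 transcript was ENST00000005178, at 0.142 to 0.153 FPKM in controls and 0.140 to 0.186 FPKM in CTTN libraries.

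Of 104 transcript models of the 8 genes, 30 had a mean of at least 0.1 FPKM and 18 of these were tested. By edgeR 0 were called, where 0.00345% of all transcripts were, 4 had an unadjusted p under 0.05, and limma called 0. Of 44 start-site groups, 19 reached that mean, 14 were tested and 0 were called by edgeR, where 0.0196% of all groups were, with 4 under an unadjusted p of 0.05 and 0 by limma. DESeq2 called 3 of the transcripts and 3 of the start-site groups, all higher and all of PPARG, CD36 and ANGPTL4, where it called 1.16% of all transcripts and 1.73% of all start-site groups. The uncertainty of dividing fragments between transcripts is not part of these tests. Shares over all transcripts and start-site groups are not given for an unadjusted p under 0.05 or for libraries without overlap. Those counts and separations are thus not read as a result.

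The rest of the pathway was followed with lists of 79 further genes, of which 59 were tested. In these lists 6 were called, 2 higher and 4 lower, where 4.48% of all genes tested were called in either direction and the median log2 fold change of all genes was 0.011. Among RXR partners, coactivators and corepressors no gene was called. Here and for the cell type markers, no share over all genes is given for an unadjusted p under 0.05. Such counts are not read as a result.

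RXRs are the obligate DNA-binding partners of PPARs. RXRA was at 26.8 ± 1.11 FPKM in controls and 22.8 ± 4.33 in CTTN libraries, and RXRB at 16.9 ± 0.893 and 14.3 ± 0.561 FPKM. Of the 2 tested RXR genes 0 were called by edgeR, DESeq2 or limma, 1 had an unadjusted p under 0.05, and the median log2 fold change was -0.19. Without CTTN 2 edgeR called 1 of them, RXRA, where it then called 47.4% of all genes tested. RXRG, the third partner, was listed at 0 FPKM in all controls and was not tested.

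Coactivators open chromatin at receptor-bound genes and corepressors close it. Of 8 coactivators tested 0 were called by edgeR, DESeq2 or limma and 0 had an unadjusted p under 0.05, with a median log2 fold change of -0.54 and 8 of 8 below 0. With the length trend removed that median was -0.15, and without CTTN 2 edgeR called 7 of the 8, beside 47.4% of all genes tested in that fit. MED1, the Mediator subunit that nuclear receptors contact, was at 764, 924 and 949 CPM in controls and 448, 911 and 303 CPM in CTTN 1, 2 and 3, so that CTTN 2 lay among the controls (log2 fold change -0.67, edgeR, adjusted p = 0.237). The row of NCOA6 is shared with PIGU, so its log2 fold change of -0.12 (adjusted p = 0.346) is uncertain. PPARGC1A, the cold- and exercise-induced coactivator, was listed at 0 fragments in every library. SLC25A20, the mitochondrial carnitine carrier that most cells use, was listed at 0 in every library too, so a 0 in these tables need not mean that a gene was silent. Of 7 corepressors 0 were called by edgeR, DESeq2 or limma, 1 had an unadjusted p under 0.05, and the median log2 fold change was -0.11, while edgeR called 3 of them both without CTTN 2, beside those 47.4%, and with the length trend removed, beside 20.6% of all genes tested. HDAC3, a histone deacetylase of corepressor complexes, had a log2 fold change of 0.064 (edgeR, adjusted p = 0.686).

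Among enzymes that make or clear candidate PPAR ligands 1 was called lower and 1 higher. PTGS1, the constitutive cyclooxygenase, was at 46.8, 42.5 and 43.1 CPM in controls and 25.4, 27.4 and 24.0 CPM in CTTN libraries, without overlap (log2 fold change -0.78, SE 0.090, edgeR, adjusted p = 0.00844). HPGD, which degrades prostaglandins to keto forms, rose from 0.283, 0.834 and 0.886 CPM to 2.15, 2.69 and 2.67 CPM (log2 fold change 1.88, SE 0.33, adjusted p = 0.0283). With the length trend removed PTGS1 was at -0.57 and HPGD at 1.71 (edgeR, adjusted p = 0.00234 and 0.00851). These were the calls among 7 tested of 11 listed, where 4.48% of all genes were called, with a median log2 fold change of -0.14. DESeq2 called 5 of the 7, where it called 13.5% of all genes tested, and edgeR with the length trend removed called 4, where it called 20.6%. PTGS2, the inducible cyclooxygenase, reached at most 5 fragments in a library.

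Of 18 tested genes of fatty acid oxidation 1 was called, ACADL, which encodes the long-chain acyl-CoA dehydrogenase. It fell from 2.63, 2.86 and 3.00 CPM in controls to 0.650, 1.01 and 0.789 CPM in CTTN libraries (log2 fold change -1.78, SE 0.19, edgeR, adjusted p = 0.00722). The list median was 0.030. DESeq2 called 4 of the 18 and the fit without the length trend 6. Of all genes tested, the 3 fits called 4.48%, 13.5% and 20.6%. CPT1A, which admits fatty acids to mitochondria, is a PPARA target named here after its values were seen, at a log2 fold change of -0.19 (adjusted p = 0.318).

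Of 17 tested genes of lipid uptake and droplets 3 were called and the median was 0.12. DESeq2 also called 3, and the fit without the length trend 5, beside the same 4.48%, 13.5% and 20.6% of all genes tested. SLC27A4, a fatty acid transporter, rose from 106, 106 and 116 CPM to 144, 143 and 158 CPM (log2 fold change 0.44, SE 0.083, edgeR, adjusted p = 0.0357). ACSL5, which activates fatty acids with coenzyme A, fell from 14.7, 15.0 and 14.8 CPM to 10.7, 11.7 and 11.0 CPM (log2 fold change -0.42, SE 0.088, adjusted p = 0.0477), and its log2 fold change was -0.26 with the length trend removed (adjusted p = 0.0558). The row of PLIN5 is shared with LRG1 and cannot be assigned to either (log2 fold change -0.51, adjusted p = 0.0468). FABP4, a fatty acid binding protein gene, and CIDEA, a droplet gene, were listed at 0 fragments in every library, which need not mean that they were silent. None of the 6 pathway calls held when CTTN 1 or any of the controls was left out.

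Markers of other cell types that use PPARs were also measured. In adipocyte markers 1 of 4 tested genes was called, where 4.48% of all genes tested were called in either direction. It was CFD, which encodes the complement protease adipsin, at 7.01, 7.22 and 7.29 CPM in controls and 13.5, 11.6 and 22.1 CPM in CTTN libraries (log2 fold change 1.13, edgeR, adjusted p = 0.0461). With the length trend removed the log2 fold change of CFD was 0.745 (edgeR, adjusted p = 0.00215). LEP, FABP4, LPL and CIDEC, which define fat cells, were each at most 0.0611 FPKM on average in either group, and ADIPOQ at 0.0830 and 0.0606 FPKM. PLIN1, a droplet coat protein, was at 1.02 and 1.36 FPKM in controls and CTTN libraries (log2 fold change 0.12, adjusted p = 0.585), and CEBPA, a transcription factor of fat and other cells, at 4.79 and 6.79 FPKM (log2 fold change 0.47, adjusted p = 0.0985). Summed over the 8 adipocyte markers, FPKM ranged from 15.0 to 15.9 in controls and from 21.5 to 46.2 in CTTN libraries, most of it CFD. Of 4 tested macrophage markers 0 were called by edgeR, DESeq2 or limma (1 with an unadjusted p under 0.05), while without CTTN 2 edgeR called 2, beside 47.4% of all genes tested, and PTPRC, AIF1, LYZ and MRC1 were each below 0.1 FPKM on average in either group. CSF1R, the receptor of macrophage colony-stimulating factor, was at 1.77 and 1.19 FPKM (log2 fold change -0.47, adjusted p = 0.0972) and CD14 at 0.487 and 0.493 FPKM. The rows of CD68 and CD163 are shared with EIF4A1 and CD163L1. The 8 markers summed to 619 to 646 FPKM in controls and 628 to 871 in CTTN libraries, nearly all of it in the CD68 row.

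CDH5, which encodes VE-cadherin, fell from 15.4, 16.8 and 15.2 CPM to 5.28, 7.13 and 4.43 CPM (log2 fold change -1.49, edgeR, adjusted p = 0.00859), the 1 call of 2 tested endothelial markers, where 4.48% of all genes were called. VWF, the other one tested, had a log2 fold change of -0.69 (adjusted p = 0.149), while PECAM1, KDR, TEK and EMCN were below 0.05 FPKM in both groups. The 6 endothelial markers summed to 4.20 to 4.66 FPKM in controls and 1.57 to 2.19 in CTTN libraries. Of the fibroblast markers COL1A1 alone was tested, at 3.77 ± 0.431 and 3.46 ± 0.729 FPKM (adjusted p = 0.309), with COL1A2 at 0.119 ± 0.0456 and 0.0191 ± 0.0331 FPKM, and the 6 summed to 3.51 to 4.44 FPKM in controls and 2.94 to 4.30 in CTTN libraries. Of 7 luminal markers 0 were called by edgeR, DESeq2 or limma and 1 had an unadjusted p under 0.05, while edgeR called 3 with the length trend removed and 2 without CTTN 2, beside 20.6% and 47.4% of all genes tested. KRT8 and KRT19, the luminal keratins with the highest levels, had log2 fold changes of -0.019 (adjusted p = 0.932) and 0.49 (adjusted p = 0.123). The CFD and CDH5 calls were lost without CTTN 1 or any of the controls.

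The genes most like PPARG across the 6 libraries, by the root mean square difference of log2 CPM centred on each gene's mean among 12273 other genes, were MMP11 (0.030), GPM6B (0.038) and LINC00294 (0.048), where the median gene differed by 0.373. MMP11, which encodes a matrix metalloprotease, had a log2 fold change of 0.70, GPM6B, which encodes a membrane proteolipid, one of 0.76, and the noncoding LINC00294 one of 0.64. Those most like CD36 were LINC02303 (0.0875), RASIP1 (0.116) and CYP1A1 (0.124), against a median of 0.853. The noncoding LINC02303 had a log2 fold change of 1.56, RASIP1, which encodes a Ras-interacting protein, one of 1.61, and CYP1A1, the cytochrome P450 known as the main target of the aryl hydrocarbon receptor, one of 1.63, with averages of 2.07 CPM in controls and 6.42 CPM in CTTN libraries. These 6 were chosen for their likeness over the same libraries, which largely fixes their differences, so no test is given. Since the libraries fall into 2 groups, any gene that differs between the groups by a like amount comes close in this measure.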

How the data were processed

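Total RNA of 6 SKBR3 samples was sequenced by the submitters as stranded polyA libraries. Per the submitters' processing notes, reads were handled with bcl2fastq 2.20.0, Trimmomatic, STAR and Cufflinks on GRCh38, while the methods name hg19, and the deposited loci match GRCh38. The authors deposited estimated counts per gene, transcript and start-site group, divided by a size factor (a ratio per library that the authors deposited in their sample table), together with FPKM. Multiplying gene counts by the size factors gave whole numbers within 0.01 for 100% of values below 1000 fragments. These were rounded and tested with edgeR 4.0.16 in R 4.3.3 (quasi-likelihood test, TMM factors, filterByExpr, Benjamini-Hochberg over all rows, called at adjusted p under 0.05, two-sided). The design was control against CTTN with no covariate. DESeq2 1.42.0, limma 3.58.1 on log2(FPKM + 1) and log2(FPKM + 0.1) and other settings served as alternatives. The tests were first tried on simulated counts. Library totals (34887079 to 41279658 fragments) set the counting precision, and p-values measure only the spread among the 3 samples of a group.

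The genes and lists were chosen with earlier results of these data known. The text names CTTN, the 8 genes, the called genes of each list (up to 4) or else its 2 most abundant, the 3 nearest profiles to PPARG and CD36, and the leading ones of the transcripts averaging at least 0.1 FPKM, the others being only counted. ENST00000287820 as well as ERBB2, CDH1, VWF, PLIN1, CEBPA, CSF1R, CD14 and listed genes at or near 0 were added after their values were seen. Promoters came from RefSeq (GRCh38.p14). Files for coding sequences were not used here, and a gene that the rule would name is not reported here.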

Additional observations from a re-analysis of the deposited data

How the results depend on the processing

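The log2 fold changes of PPARG, CD36 and ANGPTL4 stayed above 0 in all 15 alternatives, and their calls were kept in 9, 13 and 8 of them. With edgeR 646 genes were called, and 20 to 6958 when each library was left out in turn (6958 without CTTN 2, 1266 without CTTN 3, and 20 to 38 without CTTN 1 or any of the controls). DESeq2 called 1867, limma on log2(FPKM + 1) 94, limma with 0.1 added 115, limma without a filter 13, and edgeR with the length trend removed, chosen after seeing the data, 2973. The cause was not tested. Of the 8 genes 1 to 3 were called with a library left out, 1 by limma on log2(FPKM + 1) (PPARG, with CD36 at an adjusted p of 0.0537 and ANGPTL4 at 0.0844) and 0 by limma without a filter. Of the 59 tested genes of the further pathway lists edgeR called 6, and 0 to 30 with a library left out, DESeq2 12, limma 1 with either pseudocount and 0 without a filter, the length fit 18, and edgeR with a minimum of 1.5-fold 3. DESeq2 called 6 transcripts and start-site groups together where edgeR called 0, also with each library left out.

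Of the 5 genes not called, PPARA, PPARD, FABP5 and PDK4 changed sign in some alternatives and PLIN2 in none (-0.17 to -0.012). PPARD was at 0.0094 by limma on log2(FPKM + 1) with or without a filter, 0.010 with 0.1 added and 0.13 in the length fit, and between -0.13 and 0.029 with a library left out. FABP5 was at -0.21 in the length fit and between -0.052 and 0.32 with a library left out. PDK4 was at -0.0005 by DESeq2, -0.038 by limma with or without a filter, -0.15 with 0.1 added and between -0.12 and 0.086 with a library left out. PPARA lay between -0.38 (without CTTN 2, adjusted p = 0.0602) and 0.30 with a library left out, and at 0.39 in the length fit (adjusted p = 0.0524).

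The labels and the deposited sample table disagree on which column is which control number. With the sample table's numbers as a replicate block, a fit chosen after seeing the data, edgeR called 119 genes, CD36 (adjusted p = 0.0356) and ANGPTL4 (0.0492) but not PPARG (0.0708), 1 gene of the further pathway lists (ACADL) and 0 transcripts and start-site groups, with PPARA at -0.034 and CTTN at 1.30 (adjusted p = 0.0562). The deviations of same-numbered libraries from their group means correlated at 0.023, 0.080 and -0.19, while 2 pairs with unlike numbers, control A with CTTN 3 (0.24) and control C with CTTN 2 (0.20), correlated more, so these numbers were not taken as pairs. The numbering of the labels could not be checked. PDK4, with 18 to 24 fragments per library, is the gene most limited by depth.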
